A study of Mus musculus with 8 samples.

Results

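Genes that mark macrophages were followed across colon tumors of mice, 10 in all: Emr1, C1qa, C1qb, C1qc, Cx3cr1, Csf1r, Cd68, Cd14, Mertk and Lyz2. They were taken as every probe of the non-normalized array table that carries 1 of these 10 symbols, which gave 13 of 25697 probes and 10 of 18138 genes. Total RNA of 8 colon tumor samples was hybridised to 1-colour Illumina bead arrays, 1 array per sample. All mice carried the APCmin/+ allele, in which the Wnt pathway brake Apc is cut short so that adenomas form in the gut, on a C57BL/6J-FVBN mixed strain, and all were 8 months old. The 4 VP16 samples (replicates 1 to 4), labelled as controls, carried a transgene for VP16, a viral transcriptional activation domain, alone. In the 4 VP16LXRa samples (replicates 5 to 8) the transgene encoded VP16 joined to the liver X receptor alpha, a sterol-sensing nuclear receptor, which makes the receptor active without its ligand. The labels name neither the promoter nor the cell type that drives the transgenes, which are known as intestine-specific lines. They also do not say whether the tumors came from separate mice, so every p-value measures the spread between these samples, which may be technical.

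Tissue macrophages of the colon arise largely from blood monocytes, depend on signalling through the receptor encoded by Csf1r, and engulf dying cells and bacteria. Liver X receptors are active in macrophages themselves, where they govern cholesterol export and, in mice, raise Mertk, a receptor through which dying cells are taken up. The comparison of VP16LXRa with VP16 tumors asks whether the macrophage transcripts of a tumor differ when the transgene holds the active receptor. Values below are log2 intensities after background correction and quantile normalization, and a difference is VP16LXRa minus VP16 on that scale.

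The largest differences among the arrays did not follow genotype. VP16 replicate 1 and VP16LXRa replicate 5 stood together on the first principal component, which held 55.4% of the variance, and their correlation across probes was 0.95, where either reached only 0.833 to 0.924 with any of the other 6. Both tumors were low in colonocyte and goblet cell markers, with 6 of 6 tested colonocyte genes and 4 of 5 goblet cell genes below their level in all other tumors. Between 11469 and 12257 probes were detected per array (detection p-value under 0.01), and the 11875 probes detected on at least 4 arrays were tested. The epithelial genes Krt8, Krt18, Krt19, Cdh1, Cldn3 and Cldn7 were detected on all 8 arrays. VP16LXRa replicate 5 in particular bears on nearly every macrophage gene. The difference of each macrophage gene and the counts of each gene list described are therefore also given without 1 or both of these arrays.

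No macrophage gene passed the test between the groups. Of the 10 genes 0 passed limma's test at an adjusted p under 0.05 (smallest adjusted p = 0.9999), beside 0.00842% of all tested probes, and 0 had an unadjusted p under 0.05, beside 1.68% of all tested probes. Differences were positive for 8 of the 10 genes, beside 50.4% of all tested probes, with a median of 0.47 beside a median of 0.0021 over all tested probes. They ran from -0.14 for Mertk to 0.86 for C1qb. In 11 of 11 tested probes the groups overlapped, and among all tested probes 1.28% did not overlap. In bulk tumor RNA, a different number of macrophages and a different amount of RNA per macrophage cannot be told apart. The standard errors of the 10 genes had a median of 0.44, beside 0.24 over all tested probes, and the number of arrays limits what could be seen.

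What the genes shared was their level in single tumors. VP16LXRa replicate 5 was the highest of the 8 tumors for 9 of the 10 genes, Mertk being the exception, beside 24.7% of all tested probes. Within the VP16 group, replicate 1 was the highest for 8 of the 10, a count for which no share of all tested probes was taken. For 4 genes (Emr1, C1qa, Cd68 and Cd14) both tumors stood above all the other 6, which was so for 20.4% of all tested probes. Mertk stood below all the other 6 in both, as did 19.4% of all tested probes. The median of the 10 genes, each centred on its mean over the 8 tumors, was 1.32 in VP16LXRa replicate 5 and 0.24 in VP16 replicate 1. It lay at -0.42, -0.59 and -0.21 in VP16 replicates 2, 3 and 4, and at -0.09, 0.31 and -0.38 in VP16LXRa replicates 6, 7 and 8. Between its lowest and highest tumor a macrophage gene typically moved by 2.22 (median of the 10), against 1.01 for all tested probes (median).

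**Figure D1:**
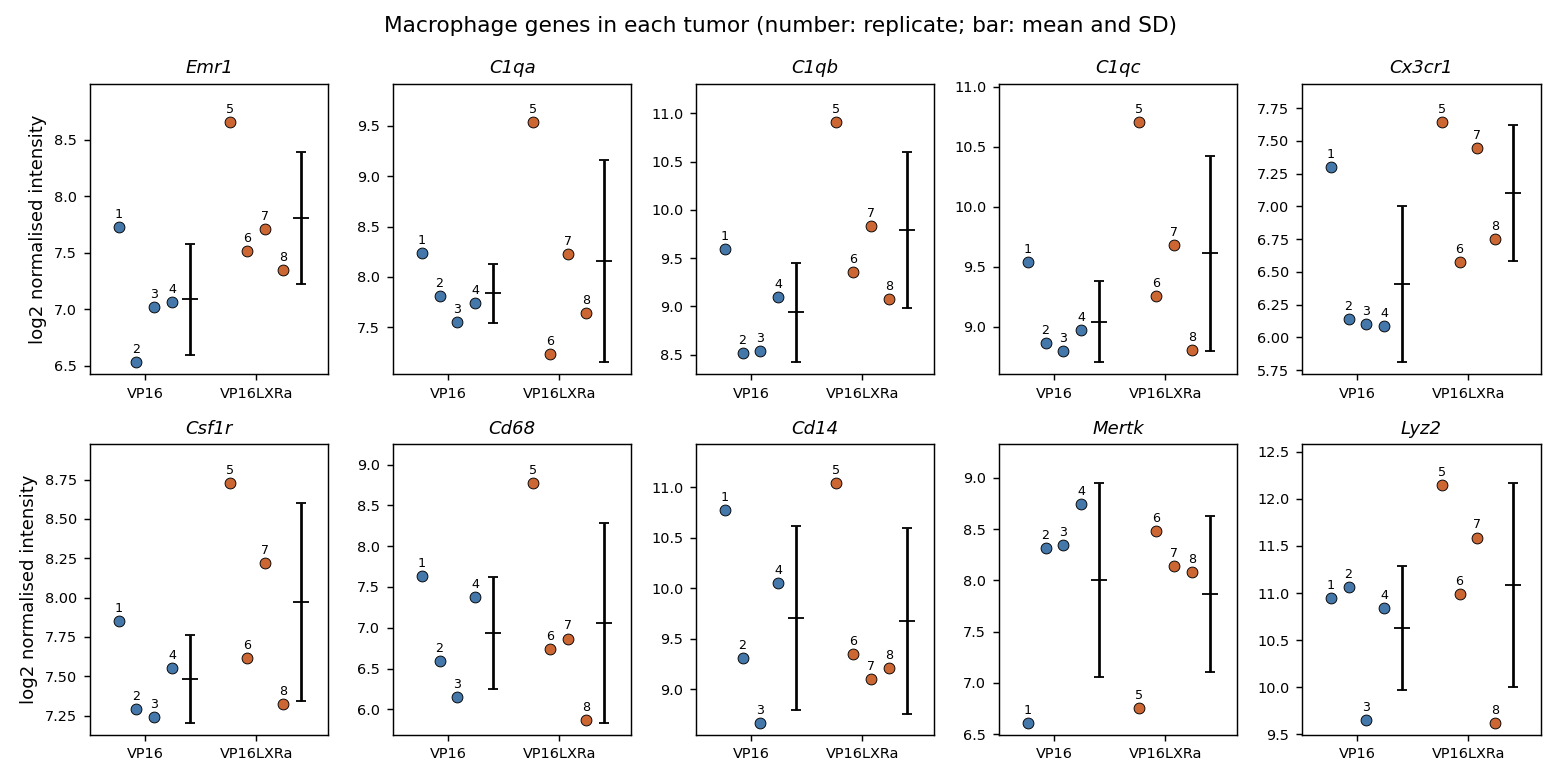
Log2 normalised intensity of each of the 10 macrophage genes at its brightest probe (vertical axis) in the 4 VP16 and 4 VP16LXRa tumors (horizontal axis); numbers are replicates, and bars give the mean and SD of each group. The groups overlap for every gene, and VP16LXRa replicate 5 is the highest tumor in each plot but that of Mertk, where it and VP16 replicate 1 are the lowest.

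The surface receptors come first. Emr1, now named Adgre1, encodes the adhesion receptor by which mouse macrophages are commonly recognised. Its brightest probe stood at 7.73, 6.53, 7.02 and 7.07 in VP16 replicates 1 to 4 and at 8.66, 7.51, 7.71 and 7.35 in VP16LXRa replicates 5 to 8. Only VP16 replicate 1 reached the range of the VP16LXRa tumors. The means were 7.09 ± 0.49 and 7.81 ± 0.58 (SD, n = 4 each), a log2 difference of 0.72 (95% interval -0.06 to 1.50), with an adjusted p of 0.9999 from limma. It was 0.44 without VP16LXRa replicate 5. A dimmer Emr1 probe gave a difference of 0.41 (SE 0.28), with the highest value, 7.24, again in VP16LXRa replicate 5. A further Emr1 probe was detected on 0 of 8 arrays and was not tested.

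Cx3cr1 encodes the receptor for fractalkine and is a mark of resident macrophages of the gut wall. It stood at 7.30, 6.14, 6.10 and 6.09 in VP16 replicates 1 to 4 and at 7.64, 6.57, 7.44 and 6.75 in VP16LXRa replicates 5 to 8. Replicates 2, 3 and 4 of the VP16 group lay within a narrow band below all VP16LXRa tumors, while VP16 replicate 1 lay inside their range. The log2 difference was 0.69 (95% interval -0.11 to 1.50), and 0.51 without VP16LXRa replicate 5. Csf1r, the receptor for the growth factors that keep macrophages alive, stood at 7.85, 7.29, 7.24 and 7.55 in the VP16 tumors and at 8.73, 7.61, 8.22 and 7.33 in the VP16LXRa tumors. VP16LXRa replicates 5 and 7 lay above all VP16 tumors and replicate 8 within their range, and the groups differed by 0.49 (log2, 95% interval -0.23 to 1.20). Without VP16LXRa replicate 5 the Csf1r difference was 0.24, and without both arrays that stand apart it was 0.36. A dim second Csf1r probe, above background on 1 of 4 VP16 arrays and 2 of 4 VP16LXRa arrays, was not tested. Of the 10 genes Csf1r followed the common pattern most closely, with a root mean square difference of 0.12 from the mean of the other 9 centred genes, against 0.18 to 1.28 for the others.

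C1qa, C1qb and C1qc encode the A, B and C chains of C1q, the molecule that starts the classical complement pathway, which in tissues is made mainly by macrophages. The 3 genes are next to each other on mouse chromosome 4 in the order C1qb, C1qc and C1qa in the reference annotation. The 250 bases before the start of C1qb and of C1qc are shown, since these neighbours varied together across the tumors, with those of Mertk, which went the other way. Sequences are from RefSeq (GRCm38.p6), 5′ to 3′ on the gene's strand, for 6 of the 10 genes matched in that table. Capitals mark the letters GAGGAA, the core bound by PU.1, the master transcription factor of the myeloid lineage, and TGCTGA, a half-site of MAF factors, on either strand.
C1qb, chr4:136886201-136886450, minus strand: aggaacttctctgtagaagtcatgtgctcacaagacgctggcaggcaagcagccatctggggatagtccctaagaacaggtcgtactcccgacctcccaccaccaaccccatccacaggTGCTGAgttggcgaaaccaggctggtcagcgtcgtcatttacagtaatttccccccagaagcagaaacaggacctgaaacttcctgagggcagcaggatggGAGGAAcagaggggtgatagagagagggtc
C1qc, chr4:136892915-136893164, minus strand: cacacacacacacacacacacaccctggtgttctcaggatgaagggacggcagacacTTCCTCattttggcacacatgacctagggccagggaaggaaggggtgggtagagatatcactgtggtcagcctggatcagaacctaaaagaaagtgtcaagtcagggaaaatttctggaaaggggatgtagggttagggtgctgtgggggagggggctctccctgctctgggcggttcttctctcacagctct
Mertk, chr2:128698665-128698914, plus strand: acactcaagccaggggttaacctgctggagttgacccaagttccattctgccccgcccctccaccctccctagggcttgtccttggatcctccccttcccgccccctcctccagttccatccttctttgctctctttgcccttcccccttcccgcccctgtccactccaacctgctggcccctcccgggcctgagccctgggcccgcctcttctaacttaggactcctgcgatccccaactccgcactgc
The C1qb window holds TGCTGA at position -131 and GAGGAA at position -30 from the start, and the C1qc window holds GAGGAA, read on the other strand, at position -193. Among windows of the same length 23.3% hold GAGGAA and 16.1% hold TGCTGA, so that such matches are common. The windows of Mertk and Cx3cr1 hold neither, and that of Lyz2 holds TGCTGA only. Of the 6 windows 3 hold GAGGAA and 2 hold TGCTGA. A match describes these letters only.

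C1qb stood at 9.60, 8.52, 8.54 and 9.10 in VP16 replicates 1 to 4 and at 10.91, 9.35, 9.83 and 9.08 in VP16LXRa replicates 5 to 8. Its means were 8.94 ± 0.51 and 9.79 ± 0.81 (SD, n = 4 each), and the log2 difference of 0.86 (95% interval -0.10 to 1.81) was the highest of the 10 genes. It was 0.48 without VP16LXRa replicate 5. C1qc stood at 9.54, 8.87, 8.79 and 8.97 in the VP16 tumors and at 10.71, 9.26, 9.68 and 8.81 in the VP16LXRa tumors, and its groups differed by 0.57 (log2, 95% interval -0.32 to 1.46). Without VP16LXRa replicate 5 the C1qc difference was 0.21, and without VP16 replicate 1 as well it was 0.37. VP16LXRa replicates 5 and 7 were the highest tumors for both chains. C1qa stood at 8.24, 7.81, 7.55 and 7.74 in the VP16 tumors and at 9.54, 7.23, 8.23 and 7.64 in the VP16LXRa tumors. Its lowest value of all came from VP16LXRa replicate 6, where C1qb (9.35) and C1qc (9.26) lay above their own lowest values (8.52 and 8.79). The log2 difference of C1qa was 0.32 (95% interval -0.72 to 1.36) and turned to -0.14 without VP16LXRa replicate 5. Within an array the difference between C1qb and C1qc varied with an SD of 0.22, and that between C1qa and C1qb with an SD of 0.42.

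Cd68, Lyz2 and Cd14 are products of phagocytes that other cells can also make. Cd68, a glycoprotein of late endosomes and lysosomes, stood at 7.63, 6.59, 6.15 and 7.38 in VP16 replicates 1 to 4 and at 8.78, 6.74, 6.87 and 5.87 in VP16LXRa replicates 5 to 8. The VP16LXRa group held both its highest and its lowest tumor, and the log2 difference was 0.13 (95% interval -1.25 to 1.50). It was -0.45 without VP16LXRa replicate 5 and -0.14 without VP16 replicate 3. Cd14, the co-receptor that hands bacterial lipopolysaccharide to TLR4, stood at 10.77, 9.31, 8.67 and 10.05 in the VP16 tumors and at 11.04, 9.35, 9.10 and 9.21 in the VP16LXRa tumors. VP16 replicates 1 and 4 lay above VP16LXRa replicates 6, 7 and 8, which were close to each other. The log2 difference of Cd14 was -0.03 (95% interval -1.29 to 1.24), and it took a positive sign when VP16 replicate 1 (0.33) or 4 (0.09) or VP16LXRa replicate 6 (0.08), 7 (0.17) or 8 (0.13) was left out.

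Lyz2, the lysozyme of myeloid cells, stood at 10.95, 11.07, 9.65 and 10.85 in VP16 replicates 1 to 4 and at 12.14, 11.00, 11.59 and 9.62 in VP16LXRa replicates 5 to 8. Each group had 1 low tumor, VP16 replicate 3 and VP16LXRa replicate 8, at nearly the same level. The log2 difference was 0.46 (95% interval -0.79 to 1.71), and single tumors moved it widely. It was 0.11 without VP16LXRa replicate 5, 0.13 without VP16 replicate 3, 0.29 without VP16LXRa replicate 7 and 0.95 without VP16LXRa replicate 8, and 0.22 without both arrays that stand apart. Lyz1, the close copy used by Paneth cells and the neighbour of Lyz2 in the reference annotation, ran from 4.74 in VP16 replicate 3 to 11.94 in VP16LXRa replicate 5. It stood at 9.86 in VP16LXRa replicate 8, where Lyz2 was lowest. Whether the Lyz2 probe also binds Lyz1 transcripts was not tested.

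Mertk, a tyrosine kinase receptor that recognises dying cells through Gas6 and protein S, was the odd one out. It stood at 6.61, 8.31, 8.34 and 8.75 in VP16 replicates 1 to 4 and at 6.76, 8.48, 8.14 and 8.09 in VP16LXRa replicates 5 to 8. The 2 tumors that stood apart on the arrays had the lowest Mertk, 1.74 (VP16 replicate 1) and 1.60 (VP16LXRa replicate 5) below the mean of the other 6, which lay between 8.09 and 8.75. The log2 difference between the groups was -0.14 (95% interval -1.34 to 1.06), and it turned to 0.23 without VP16LXRa replicate 5 and to 0.11 without VP16 replicate 4. It was -0.60 without VP16 replicate 1, -0.34 without VP16LXRa replicate 6, -0.23 without VP16LXRa replicate 7, -0.21 without VP16LXRa replicate 8, and close to 0 without VP16 replicate 2 (-0.03) or 3 (-0.02). Its root mean square difference from the mean of the other 9 centred genes, 1.28, was the largest of the 10.

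**Figure D2:**
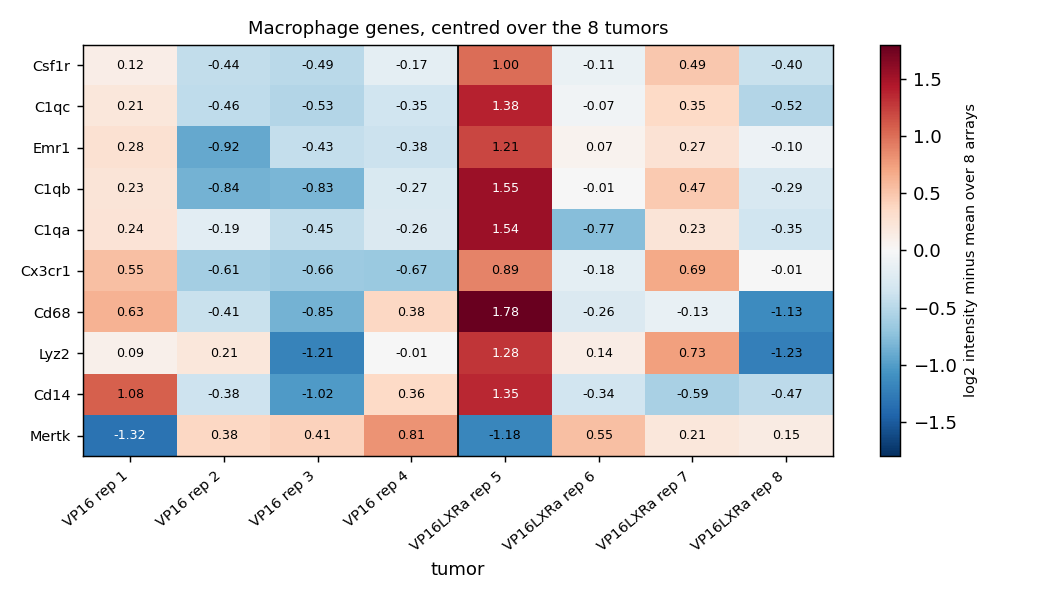
Log2 intensity of each macrophage gene (rows) minus its mean over the 8 tumors, in each tumor (columns; the line parts VP16 from VP16LXRa); red is above and blue below the mean. VP16LXRa replicate 5 is red for 9 genes, from 0.89 (Cx3cr1) to 1.78 (Cd68), and Mertk is blue in VP16 replicate 1 (-1.32) and VP16LXRa replicate 5 (-1.18).

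Leaving out VP16LXRa replicate 5 alone lowered the median difference of the 10 genes to 0.22, with 7 of 10 positive, beside 50.6% of all tested probes. It was 0.76, with 9 of 10 positive, without VP16LXRa replicate 8, beside 51.0% of all tested probes. With VP16 replicate 1 also left out beside replicate 5, 3 tumors per group remained, 6 of 10 genes had positive differences (50.9% of all tested probes), and the median was 0.29. In that smaller comparison Cx3cr1 differed by 0.81 (SE 0.24, limma unadjusted p = 0.0124), Emr1 by 0.65 (SE 0.20, unadjusted p = 0.01473) and C1qb by 0.70 (SE 0.26, unadjusted p = 0.03006). These 3 of 10 genes compare with 3.24% of all tested probes at an unadjusted p under 0.05. Every remaining VP16LXRa tumor lay above every remaining VP16 tumor for Cx3cr1 and for the brightest Emr1 probe, as for 4.08% of all tested probes. The dimmer tested Emr1 probe differed by 0.31 there (SE 0.25, limma unadjusted p = 0.2599), and its groups overlapped. None of the 10 passed after adjustment over all probes (smallest adjusted p = 0.9998), where 0.0337% of all probes did. Cd68 (-0.22), Cd14 (-0.12) and Mertk (-0.23) had negative values there and C1qa was close to 0, so that the signs were mixed. For Cx3cr1 and the brightest Emr1 probe, VP16 replicate 1 was the only VP16 tumor within the VP16LXRa range. Leaving it out therefore parts those groups by itself. Without VP16 replicate 1 alone the differences were 0.99 (Cx3cr1) and 0.93 (Emr1). Every VP16LXRa tumor then lay above every VP16 tumor left, as for 2.51% of all tested probes. The macrophage genes were picked out with earlier results of the same arrays known, and the counts are no independent support.

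**Figure D3:**
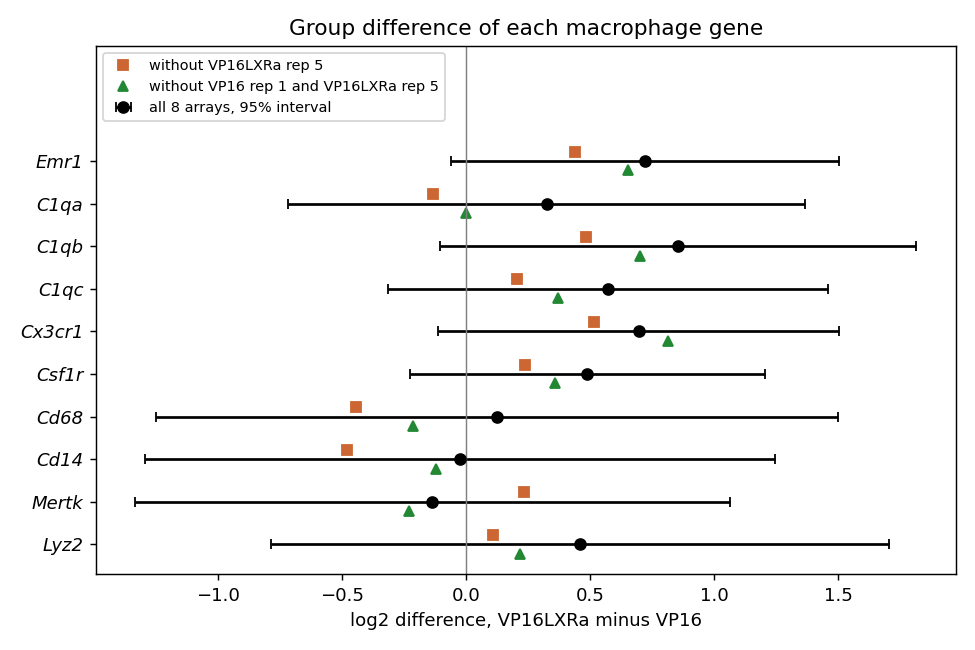
Log2 difference, VP16LXRa minus VP16, of each macrophage gene (rows): circles with 95% intervals are all 8 arrays, squares leave out VP16LXRa replicate 5, and triangles leave out VP16 replicate 1 and VP16LXRa replicate 5. Every interval crosses 0, and the squares lie left of the circles for all genes but Mertk.

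Ligands and partners of these receptors, listed together with Lyz1, the close copy of Lyz2, showed no difference that passed. Lyz1 is also among the Paneth cell genes below, and Gas6, Pros1 and Axl are also among the genes of apoptotic cell uptake. Of 11 listed genes 9 were tested, 0 of them called, 7 with a positive and 2 with a negative difference (median 0.18). Without VP16LXRa replicate 5, 5 of 9 were positive (median 0.18), and without both arrays that stand apart 7 of 9 were (median 0.13). Csf1, the ligand of the Csf1r receptor, differed by -0.23 (SE 0.39) and Cx3cl1, which is fractalkine, by 0.15 (SE 0.28). Gas6 and Pros1, which bridge dying cells to Mertk, differed by -0.09 (SE 0.21) and 0.53 (SE 0.35), and the related receptor Axl by 0.10 (SE 0.39). Axl did not share the low values of Mertk, standing at 10.96 in VP16 replicate 1 and 11.23 in VP16LXRa replicate 5, above the 9.43 to 10.31 of the other 6 tumors. The partners of Cd14 were Tlr4 (0.18, SE 0.18), Ly96 (0.58, SE 0.35) and Lbp (0.21, SE 0.58), and Lyz1 differed by 1.89 (SE 1.20). Tyro3 was detected on 0 of 8 arrays.

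Of 37 other macrophage and monocyte genes 33 were on the array and 17 were tested, again with 0 called, 12 positive and 5 negative differences, and a median of 0.31. Fcgr2b, the inhibitory receptor for antibody, differed by 0.77 (SE 0.34), Ms4a7 by 0.73 (SE 0.38), the antibody receptor Fcgr3 by 0.87 (SE 0.57) and Aif1, which encodes Iba1, by 0.39 (SE 0.35). VP16LXRa replicate 5 was the highest tumor for 10 of the 17, and the list's median was 0.11 without that array and 0.10 without VP16 replicate 1 as well. Several well-known markers gave no signal: Itgam, Msr1, Marco, Siglec1, Ccr2, Maf and Cybb were detected on 0 of 8 arrays. The macrophage label therefore rests on the genes that were detected. Summed over the 17 genes, intensities were between 6196 and 12354 in VP16 and between 8437 and 17617 in VP16LXRa tumors. Laptm5, picked after its values were seen, was the brightest of the 17 in every tumor (10.98 to 12.91) and weighed the most in this sum.

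Complement genes outside C1q were mixed. Of 9 tested genes 5 had positive and 4 negative differences, 0 were called, and the median was 0.045. Without VP16LXRa replicate 5 it was 0.024 and without both arrays that stand apart 0.084, each with 5 of 9 positive. Serping1, the inhibitor of the C1 complex, differed by 0.46 (SE 0.34), C3 by 0.29 (SE 0.29), C4b by -0.23 (SE 0.25) and Cfp, which is properdin, by 0.37 (SE 0.41). C1s, a protease of the C1 complex picked after its values were seen, was detected on 4 of 8 arrays (-0.07, SE 0.32). Genes of apoptotic cell uptake were split 7 to 5 with 0 of 12 called (median 0.049), led by the scavenger receptor Stab1 (0.70, SE 0.35) and Pros1, with Lrp1 at -0.19 (SE 0.20) and Rac1 at -0.14 (SE 0.15). Of these 12 genes 5 were positive without VP16LXRa replicate 5 (median -0.03) and 9 without both arrays (median 0.12).

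Products of activated macrophages were mostly high in the same 2 tumors. Of 16 listed genes 6 were tested, 5 with positive differences, none called, and the median of 0.24 turned to -0.43 without VP16LXRa replicate 5. The smallest p-values belonged to Tnf (0.37, SE 0.74), Tgfb1 (0.21, SE 0.51), Retnla (0.26, SE 0.65) and Ccl3 (-0.17, SE 0.58). In both VP16 replicate 1 and VP16LXRa replicate 5, 4 of the 6 genes stood above all other tumors. Retnla went the other way, at 4.78 and 4.93 in these tumors against 5.05 to 7.27 in the other 6. The following genes of that list and of the macrophage list were picked after their values were seen. Il1b, which encodes the cytokine interleukin-1 beta, stood at 11.19 in VP16 replicate 1 and 11.48 in VP16LXRa replicate 5, against 6.52 to 7.85 in the other 6. Spp1, which encodes osteopontin, stood at 9.23 and 9.15, against 4.45 to 5.05, and Arg1, which encodes arginase, at 10.22 and 9.03, against 4.46 to 6.63. Trem2, a lipid-sensing receptor of macrophages, stood at 6.33 and 7.85, against 4.57 to 5.22. These last 3 were detected on too few arrays to be tested.

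Markers of other cells moved in the same tumors. Of the 10 neutrophil genes on the array 4 were tested, 4 of them with positive differences (median 1.32). The median was 0.22, with 2 of 4 positive, without VP16LXRa replicate 5. The tested genes were Retnlg (2.11, SE 0.87), Lcn2 (2.03, SE 1.91), Ltf (0.62, SE 0.82) and Csf3r (0.07, SE 0.54). Their summed intensity was 143 to 2408 in VP16 and 174 to 10189 in VP16LXRa tumors, highest within its group in VP16 replicate 1 and VP16LXRa replicate 5. In those 2 tumors Lcn2 was the brightest of the 4 genes, at 10.98 and 13.03, and weighed the most in the sum. S100a8, a calcium-binding protein of neutrophils and monocytes that was detected on too few arrays to be tested and was picked after its values were seen, stood at 11.06 and 12.93 in those 2 tumors, at 9.17 in VP16LXRa replicate 8 and between 4.37 and 4.79 elsewhere, while the neutrophil peroxidase gene Mpo was detected on 0 of 8 arrays. Cd14 and Lyz2 are also made by neutrophils. In VP16 replicate 1, VP16LXRa replicate 5 and VP16LXRa replicate 8, Cd14 stood at 10.77, 11.04 and 9.21. Lyz2 stood at 10.95, 12.14 and 9.62 there, the last being its lowest value. Of the 9 listed dendritic cell genes on the array Itgax, Flt3, Zbtb46, Xcr1, Clec9a and Cd209a were detected on 0 of 8 arrays, and the 2 tested genes, Itgae (0.18, SE 0.33) and Cd83 (0.16, SE 0.70), summed to 174 to 589 in VP16 and 219 to 748 in VP16LXRa tumors. Without both arrays that stand apart 0 of these 2 genes were positive. Summed Wnt target intensities were 538 to 4325 and 647 to 5510, highest in the same 2 tumors, and summed colonocyte intensities were 20055 to 76847 and 4632 to 71247, lowest in them. Other lists were also at an extreme in VP16 replicate 1 and VP16LXRa replicate 5. Their centred medians there were 2.33 and 3.65 for Paneth cell genes, 0.85 and 0.84 for fibroblast genes and 0.54 and 0.69 for endothelial genes. Both tumors stood above all others for 4 of 6 Paneth, 6 of 9 fibroblast and 4 of 6 endothelial genes, and below all others for 5 of 7 B and plasma cell genes. Some genes, picked after their values were seen, went the other way. The Paneth gene Ang4 stood at 11.07 and 10.70 in these tumors, against 11.08 to 15.09 in the other 6. The fibroblast genes Lum (5.99) and Dpt (6.29) and the endothelial gene Tek (5.94) were lowest in VP16LXRa replicate 5. The counts of positive differences also depended on VP16LXRa replicate 5. Without that array they went from 0 to 5 of 6 colonocyte, 2 to 5 of 5 goblet cell and 0 to 1 of 6 epithelial genes. Those of Wnt targets went from 5 to 2 of 6, of Paneth genes from 5 to 3 of 6 and of fibroblast genes from 7 to 4 of 9. Endothelial genes went from 4 to 1 of 6 and smooth muscle genes from 4 to 7 of 7. The part of other cell types in the macrophage values was not tested.

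**Figure D4:**
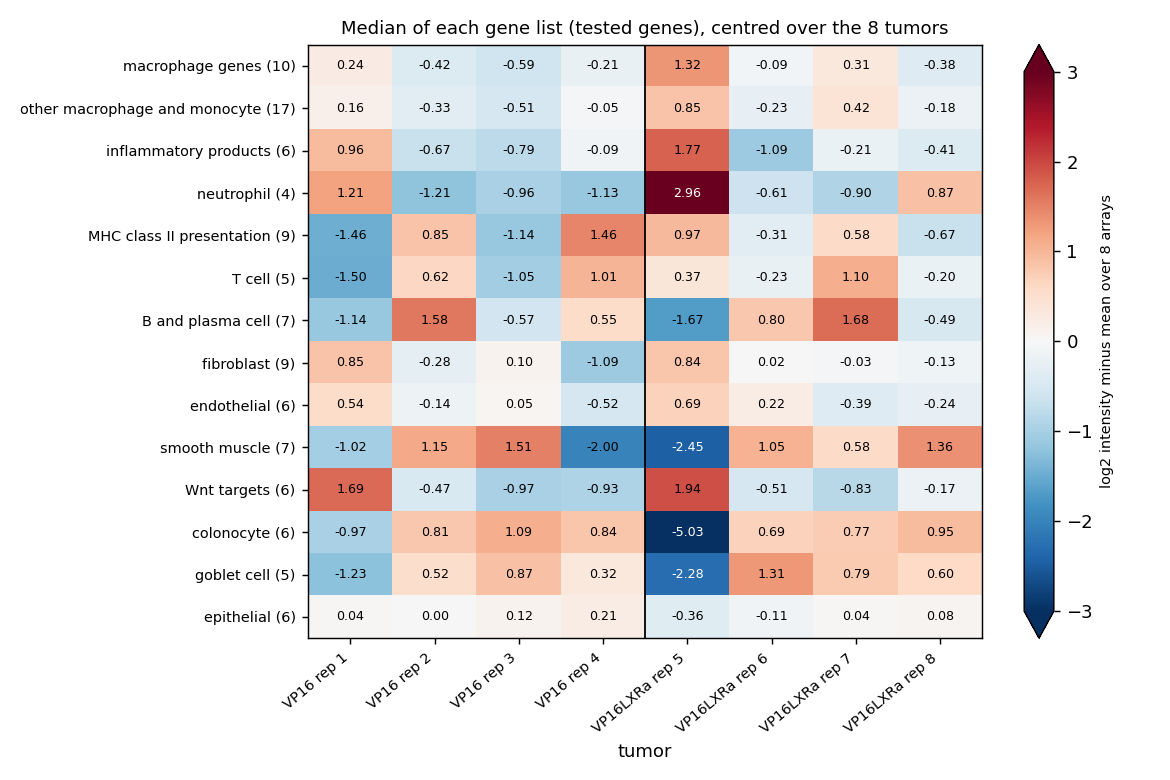
Median over the tested genes of each list (rows; number of genes in brackets), each gene centred on its mean over the 8 tumors, in each tumor (columns; the line parts VP16 from VP16LXRa). VP16 replicate 1 and VP16LXRa replicate 5 share high inflammatory, neutrophil and Wnt target medians and low colonocyte and goblet cell medians, while the MHC class II and T cell medians are high in VP16 replicate 4 and low in VP16 replicate 1.

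Among 9100 other tested genes, those nearest to the mean centred profile of the 10 macrophage genes over the 8 tumors, by root mean square difference, were Ctnnbl1 (0.13), Dhx37 (0.15), Nfkbia, Cstf1 (both 0.16), Dok2, Rbm19, 1200002N14Rik, 6030429G01Rik, D11Wsu47e and Fbxl6 (0.17 to 0.19), against a median of 0.57 over all of them. That profile includes the opposite course of Mertk. Nearest to the mean of C1qa, C1qb and C1qc were Apob48r (0.17), Fcgr2b (0.18), Cxcl16 and D16Ertd472e (both 0.22) and Tyrobp (0.23), against a median of 0.70. Tyrobp, an adaptor of myeloid receptors, stood at 7.48, 6.25, 6.09 and 6.28 in VP16 replicates 1 to 4 and at 8.24, 6.12, 7.12 and 6.34 in VP16LXRa replicates 5 to 8. VP16LXRa replicate 5 was its highest tumor, which largely follows from choosing it for its likeness to the C1q chains.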

How the data were processed

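Per the file headers, each array has 2 deposited columns: a summarised bead intensity that was not normalized, and the detection p-value of the probe. GenomeStudio is named by the submitters' processing notes. Per the labels' protocols, QIAzol served for RNA extraction and Ambion TotalPrep for labelling. The authors' own processed intensities were also deposited, by steps not given in the sources used here, and their array medians lie between 18.04 and 18.16.

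From the raw signals, neqc of limma 3.58.1 (R 4.3.3) removed background by normexp, applied quantile normalization and took log2 with an offset of 16, which shrinks differences of dim probes. A probe was tested when 4 or more arrays had a detection p-value below 0.01 (11875 probes, 46.2%). The 2 groups were compared with limma's moderated linear model (lmFit, eBayes). Its p-values are two-sided and were adjusted after Benjamini and Hochberg across the tested probes, and a gene is represented by its brightest tested probe. The code was tested on simulated data. The macrophage genes and the 19 other lists were chosen with earlier results of these data known. Named are all macrophage genes, all tested ligands and partners, up to 4 genes of each list shown by smallest p, the most alike genes, and genes said to be chosen after their values were seen. The alternatives were other background, scaling, offset, filter and variance settings, the authors' values, the mean of a gene's probes and left-out arrays. Median raw signals ran from 126.2 to 145.8 and 0 arrays were identical. Slides and scans are not given in the sources used here, which leaves batches unexamined.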

Additional observations from a re-analysis of the deposited data

Results flagged for a closer look

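Among 22 checks of 11 tested macrophage probes in groups of 4 tumors, 4 found a tumor far from the other 3 of its group. Chance flags about 1 in 20 such groups. The dimmer tested Emr1 probe stood at 7.24 in VP16LXRa replicate 5, and Cd14 at 11.04 in the same tumor, both far above the other VP16LXRa tumors. Cx3cr1 stood at 7.30 in VP16 replicate 1, far above the other VP16 tumors. Lyz2 stood at 9.65 in VP16 replicate 3, far below the other VP16 tumors.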

How the results depend on the processing

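Of the 10 macrophage genes 0 passed under any of the 20 alternatives (smallest adjusted p = 0.9709), where at most 0.0337% of all probes did. The count of genes with positive differences was 7 to 10 and their median 0.22 to 0.76 when single arrays were left out, and 6 to 8 and 0.26 to 0.47 under the other 12 settings. Emr1, C1qb, C1qc, Cx3cr1, Csf1r and Lyz2 kept a positive sign under all 20. With array weights Cd68 differed by -0.12. Without VP16 replicate 1 and VP16LXRa replicate 5 together, Cd68 differed by -0.22 and C1qa by -0.001. When single arrays were left out, C1qa ran from -0.14 to 0.63, Cd68 from -0.45 to 0.52, Cd14 from -0.48 to 0.33 and Mertk from -0.60 to 0.23. These signs changed through fewer samples or other weights on them. Counts of other lists with arrays left out were added after seeing the data. With VP16LXRa replicate 5 left out, 13 of 17 other macrophage genes, 1 of 6 inflammatory genes and 2 of 4 neutrophil genes had positive differences. No paired analysis was possible because the replicate numbers in the titles run from 1 to 8 across the groups and pair nothing. The number of arrays limits precision, and probes near background could not be tested.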

Other observations

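Genes of antigen presentation and of lymphocytes also varied among the tumors. The median of 9 tested MHC class II presentation genes, centred over the 8 tumors, was highest in VP16 replicate 4 (1.46) and lowest in VP16 replicate 1 (-1.46). It was 0.97, 0.58 and 0.85 in VP16LXRa replicates 5 and 7 and VP16 replicate 2, and -1.14, -0.31 and -0.67 in VP16 replicate 3 and VP16LXRa replicates 6 and 8. That of 5 tested T cell genes was highest in VP16LXRa replicate 7 (1.10) and lowest in VP16 replicate 1 (-1.50). Cd74, the invariant chain of MHC class II, stood at 14.11 in VP16 replicate 4 and 11.73 in VP16 replicate 1, and Cd3d, a chain of the T cell receptor complex, at 8.04 and 5.38. None of these genes passed limma's test between genotypes. H2-Eb1 differed by -1.14 (SE 0.90), H2-Aa by -0.73 (SE 0.62), Cd74 by 0.43 (SE 0.58) and H2-DMb1 by 0.51 (SE 0.72). In VP16LXRa replicate 7 H2-Eb1 stood at 7.62 and H2-Aa at 8.81, the lowest of the 8 tumors, while Cd74 stood at 13.47 there. The T cell genes Cd3d (0.74, SE 0.65), Cd3e (0.48, SE 0.52), Cd3g (0.57, SE 0.66) and Lck (0.24, SE 0.55) had positive differences over all arrays. Of 5 tested T cell genes 5 were positive (median 0.48), but 3 without VP16 replicate 1 (median 0.05) and 2 without VP16LXRa replicate 5 as well (median -0.0003). Of 9 MHC class II genes 5 were positive, 2 without VP16 replicate 1 and 0 without both arrays (median -0.37). The B cell gene Blnk differed by -0.20 (SE 0.23). Of 3 tested mast cell genes Cpa3 differed by 1.22 (SE 0.55) at its brightest probe, Mcpt4 by 0.72 (SE 0.44) and Mcpt1 by -0.0015 (SE 0.85). Cpa3 was detected on 4 of 8 arrays, and its lowest value, 4.52, was in VP16LXRa replicate 7. Of the 3 mast cell genes 2 were positive over all arrays and 2 without VP16LXRa replicate 5.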
